A study of Malus domestica with 15 samples.

Results

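Untreated apple skin was compared after 7 days of shelf life and at the end of the 2 months of cold storage that came before it, called storage end here. The fruit were Malus domestica, and the skin is the labelled tissue. The comparison rests on 6 of the 15 samples of the series, which are the 3 samples titled T2+7_CTRL and the 3 titled T2_CTRL, chosen by these titles. A further 3 groups of 3 samples each were used as background. They were fruit treated with 1-methylcyclopropene (1-MCP, at 0.7 µl/L) after the same 2 months plus 7 days (T2+7_MCP), 1-MCP-treated fruit at the end of the 2 months (T2_MCP), and untreated fruit at harvest (T0). Untreated fruit that had been stored are the controls of the labels and carry that name in the plots. The sources used here do not give the cultivar, the temperature of storage and shelf life, or the number of fruit in a sample. The shelf-life fruit were also 7 days older than the cold-stored fruit, so leaving the cold and the added time cannot be told apart.

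An apple taken out of cold storage resumes ripening. Ripening of apple is driven by ethylene, a gaseous hormone whose production rises as the fruit ripens, and it brings changes in cell wall enzymes, aroma synthesis, pigments and surface waxes. The skin is also where superficial scald appears, a browning that often becomes visible on the shelf after cold storage and that the series title names as its subject. 1-MCP occupies the ethylene receptors of plant cells and blocks their response to the hormone, so the treated fruit went through the same 7 days under an inhibitor of that response.

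The deposited table gave 1 value per locus and group, in FPKM, which counts sequenced fragments per kilobase of a transcript and per mapped fragments of the library, so levels of different loci can be set side by side per length. A group's value was read as standing for its 3 samples, although no header says so. There was therefore no spread, no test and no p-value for any difference below, and the depth behind the values is unknown. Differences are log2(FPKM + 1) after shelf life minus that at storage end, and a locus was counted as higher or lower where this difference was 1 or more in size, a rule of size alone. Loci with a mean of at least 1 FPKM over the 5 groups and no group listed at 0 were used, 42287 of 80965. The table pairs no identifier with a gene name, and the RefSeq gene list for the apple assembly GDT2T_hap1 held 0 of its 63541 gene model identifiers. Genes of ripening, scald or skin markers are thus not named, the skin label was not checked against markers, and loci are described by identifier, level and behaviour.

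In the deposited values, shelf life of untreated fruit went with slightly lower FPKM at most loci and with large differences at few. After 7 days, 1568 loci were higher (3.71% of those analysed) and 3076 lower (7.27%). The difference was below 0 at 28164 loci (66.6%) and above 0 at 14122 loci (33.4%), with a median of -0.19 and quartiles of -0.50 and 0.13. Most loci differed little, 64.5% of them by less than 0.5 log2 units. A difference of 2 or more was seen at 229 higher (0.542%) and 519 lower (1.23%) loci, of 3 or more at 50 (0.118%) and 123 (0.291%), and of 4 or more at 9 (0.0213%) and 40 (0.0946%). The threshold did not fall in a gap, since 314 loci lay between 1 and 1.1 and 339 between 0.9 and 1, and on the lower side 585 lay between -1.1 and -1 and 780 between -1 and -0.9.

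The excess of lower loci depends on how the columns are put on a common scale. The median level of all loci was 6.80 FPKM after shelf life and 8.10 FPKM at storage end, while the FPKM of the analysed loci summed to 2527311 and 2322685. Dividing each column by its 75th percentile moved the median difference to -0.04 and gave 2183 higher and 2284 lower loci. Trimmed mean scaling, which levels the middle of the log ratios, gave 2357 higher and 2173 lower loci, so the balance of the directions turned with the scaling (33.8% of the loci that differed were higher as deposited, 52.0% with the trimmed mean). Scaling the columns to equal FPKM sums, taken over all 80965 loci and not only those analysed, went the other way. It gave a median of -0.26 and 1356 higher and 3644 lower loci (27.1% higher). The number of loci that differed in either direction moved less, being 4644 (11.0%) as deposited, 5000 with equal sums, 4467 with the 75th percentile and 4530 with the trimmed mean. Differences of single loci below are as deposited and should be read against the median of -0.19.

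**Figure D1:**
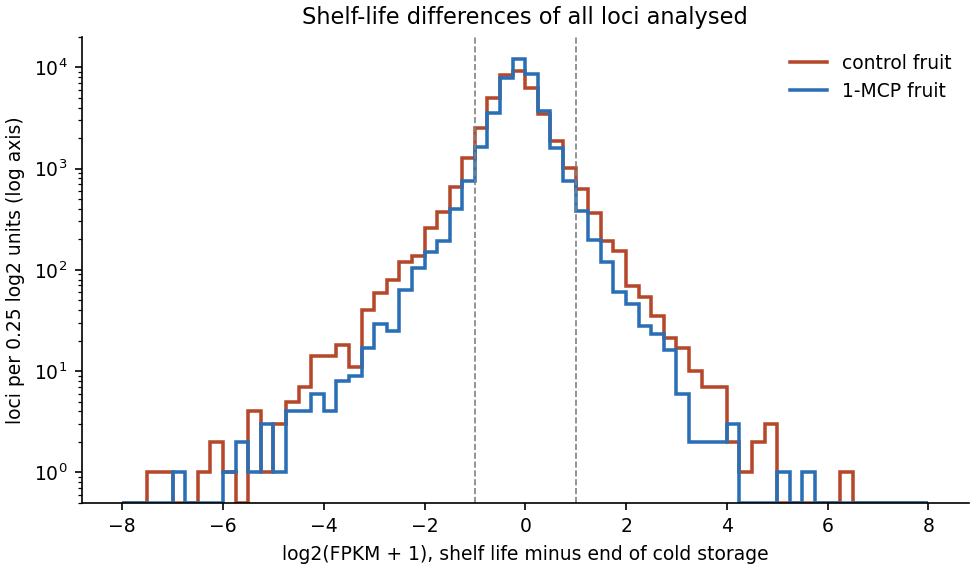
Number of loci (log axis) by the log2(FPKM + 1) difference between shelf life and storage end, in bins of 0.25, for untreated fruit (red) and 1-MCP-treated fruit (blue), over the same 42287 loci. Dashed lines mark differences of -1 and 1, beyond which lie 4644 loci of untreated fruit and 2672 of 1-MCP-treated fruit.

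The largest single difference upward was at an assembled locus that was close to silent in the other fruit. CUFF.37091, which spans the gene models MDP0000301606 and MDP0000356099, stood at 1569 FPKM after shelf life and 17.1 FPKM at storage end in untreated fruit (log2 difference 6.44). It was listed at 1.59 FPKM at harvest, and in 1-MCP-treated fruit at 0.562 FPKM after shelf life and 0.870 FPKM at storage end. Of the 5 columns, those of stored untreated fruit were above 2 FPKM and the others below it. The next largest difference upward had the same shape. CUFF.6914, an assembled locus with no gene model, was at 111 FPKM after shelf life and 2.59 FPKM at storage end in untreated fruit (4.97). It was at 0.602 FPKM at harvest, and in 1-MCP-treated fruit at 0.556 FPKM after shelf life and 0.447 FPKM at storage end.

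The largest differences downward were at gene models that were abundant at harvest. MDP0000138500 was at 1.33 FPKM after shelf life and 404 FPKM at storage end in untreated fruit (-7.44), with 463 FPKM at harvest. In 1-MCP-treated fruit it was at 124 FPKM after shelf life and 129 FPKM at storage end, so the untreated column after shelf life stood alone at the low end. MDP0000143641 was at 11.1 FPKM after shelf life and 1773 FPKM at storage end (-7.19), with 1279 FPKM at harvest. In 1-MCP-treated fruit this model was also lower after shelf life, at 127 FPKM against 539 FPKM at storage end (-2.08). Neither of these models has an assembled locus of its own in the table.

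**Figure D2:**
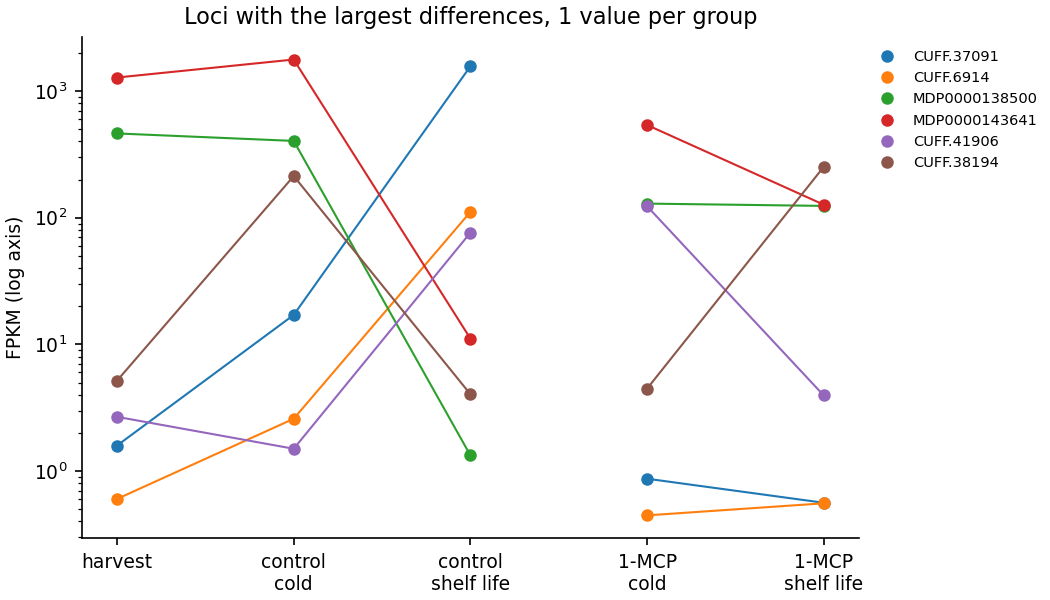
FPKM (log axis) of the 6 named loci in each group, 1 value per group, with lines joining harvest, cold storage and shelf life of untreated fruit and the 2 times of 1-MCP-treated fruit. CUFF.37091 and CUFF.6914 stand highest in untreated fruit after shelf life (1569 and 111 FPKM), while CUFF.38194 and CUFF.41906 cross in opposite directions in the treatments.

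The loci that were higher after shelf life spanned a wide range of levels. Their median was 11.2 FPKM at harvest, 7.93 FPKM in untreated fruit at storage end and 24.0 FPKM after shelf life. In 1-MCP-treated fruit the same 1568 loci had a median of 11.8 FPKM after shelf life and 9.40 FPKM at storage end. The quartiles after shelf life were 8.51 and 97.7 FPKM in untreated fruit, and the 90th percentile was 456 FPKM. The comparison with harvest and the shelf-life comparison share control columns, so their values are given side by side only. The 1568 loci were chosen on these columns of untreated fruit, so their levels and differences there are shaped in part by the choice. The median log2 difference from harvest over these loci was 0.87 after shelf life and -0.55 at storage end, while over all 42287 loci it was -0.33 and -0.15.

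The loci that were higher by 3 or more numbered 50. The rule picks them for a high value after shelf life or a low one at storage end, so their levels in those columns are a description only. Their median was 5.27 FPKM at harvest, 11.2 FPKM in untreated fruit at storage end and 132 FPKM after shelf life. In 1-MCP-treated fruit it was 10.2 FPKM after shelf life and 6.95 FPKM at storage end. Over these loci the median difference from harvest was 3.94 after shelf life and 0.38 at storage end.

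The loci that were lower after shelf life had a median of 15.3 FPKM at harvest, 13.5 FPKM in untreated fruit at storage end and 3.88 FPKM after shelf life. In 1-MCP-treated fruit these 3076 loci had a median of 8.98 FPKM after shelf life and 13.4 FPKM at storage end. The median difference from harvest was -1.41 after shelf life and 0.01 at storage end, while over all loci it was -0.33 and -0.15. The 3076 loci were chosen on these columns of untreated fruit, so their medians there are shaped in part by the choice. The 123 loci that were lower by 3 or more were picked by the rule for a high value at storage end or a low one after shelf life, and their levels in those columns are again a description. Their median was 30.3 FPKM at harvest, 59.4 FPKM at storage end and 3.50 FPKM after shelf life in untreated fruit, with median differences from harvest of -2.80 after shelf life and 0.78 at storage end. In 1-MCP-treated fruit their median was 13.1 FPKM after shelf life and 24.1 FPKM at storage end.

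**Figure D3:**
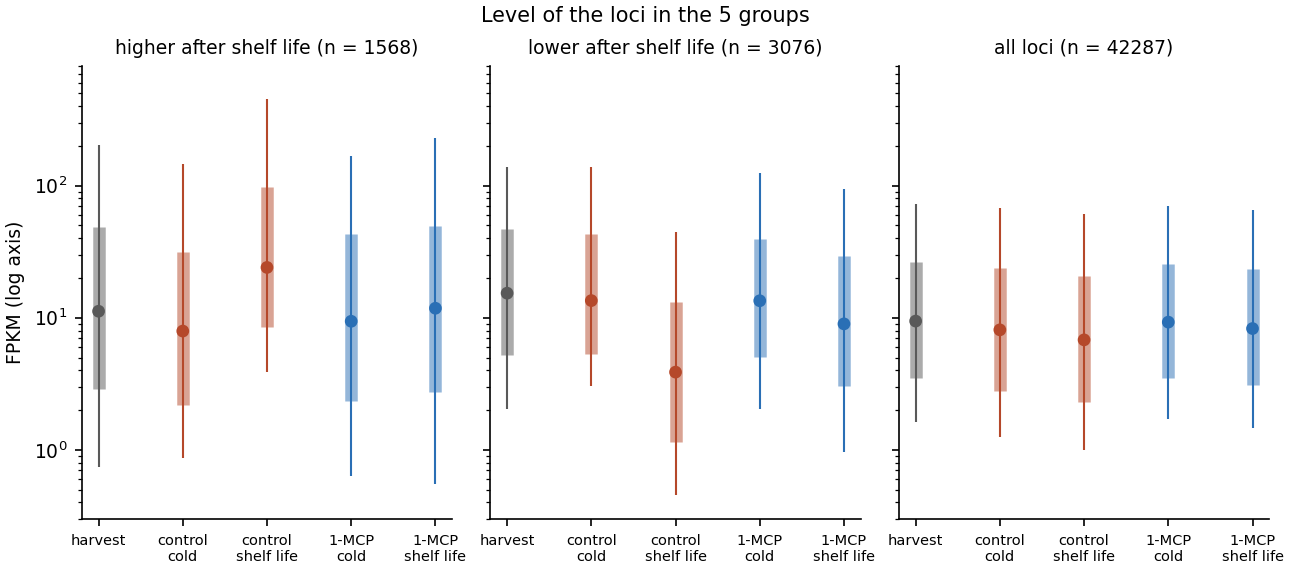
FPKM (log axis) in each of the 5 groups for the loci that were higher after shelf life in untreated fruit, those that were lower, and all loci analysed. Points are medians, thick bars the quartiles and thin lines the 10th to 90th percentiles. The higher loci have a median of 24.0 FPKM and the lower loci 3.88 FPKM in untreated fruit after shelf life, against 7.93 and 13.5 FPKM at storage end.

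In untreated fruit, transcript abundance was held by fewer loci after shelf life. The 100 most abundant loci held 44.6% of the summed FPKM of untreated fruit after shelf life and 37.3% at storage end, and the 1000 most abundant held 68.5% and 61.8%. In 1-MCP-treated fruit the 100 most abundant held 47.5% after shelf life and 40.8% at storage end. There the locus CUFF.37547 alone stood at 364444 FPKM after shelf life and 68088 FPKM at storage end. The summed FPKM of these columns was 2743463 and 2559174. CUFF.37547 thus rose by more than the summed FPKM did. The larger 1-MCP share after shelf life rests largely on this locus. Shares without it were not computed, and a shift shared by both treatments cannot be read from those given. The lists of higher and lower loci were chosen on these columns, so the direction of their own shares is fixed by the choice and only the size is a description. The loci that were higher in untreated fruit held 23.4% of its summed FPKM after shelf life and 9.39% at storage end. Leaving out the 12 loci that were among the 10 most abundant at either time gave 23.7% and 8.34%. In 1-MCP-treated fruit the same loci held 8.80% after shelf life and 9.10% at storage end. The loci that were lower in untreated fruit held 3.12% after shelf life and 11.4% at storage end.

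The list of the most abundant loci was largely shared by the 2 times. Of the 10 most abundant loci in untreated fruit, 8 were common to shelf life and cold storage, as were 75 of the 100 and 750 of the 1000 most abundant. In 1-MCP-treated fruit 8, 80 and 835 were common. The most abundant locus after shelf life, ranked 4 at storage end, stood at 107937 FPKM after shelf life and 53366 FPKM at storage end in untreated fruit (log2 difference 1.02). In 1-MCP-treated fruit it was at 19062 FPKM after shelf life and 56312 FPKM at storage end (-1.56). The locus ranked 1 at storage end showed the opposite picture, with 57601 FPKM after shelf life and 70322 FPKM before it in untreated fruit (-0.29), against 364444 and 68088 FPKM in 1-MCP-treated fruit (2.42). These loci were chosen for their rank after their values had been seen.

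Abundant loci, by a level taken outside this comparison, differed more often within it. Loci were binned by their mean FPKM at harvest and in both groups of 1-MCP-treated fruit, which the comparison does not use. Of the 21222 loci at 1 to 10 FPKM, 2.70% were higher and 5.70% lower in untreated fruit after shelf life. At 10 to 100 FPKM (17338 loci) these shares were 3.29% and 8.11%, at 100 to 1000 FPKM (2747 loci) 8.23% and 11.9%, and at 1000 FPKM or more (248 loci) 14.5% and 16.9%. In 1-MCP-treated fruit the shares also grew along these bins, up to 11.7% higher and 12.9% lower in the last, though that comparison uses columns that set the bins. The step from the first bin to the second rests on the pseudocount, which damps differences at low FPKM. With a pseudocount of 0.1, chosen here after the data were seen, 5.63% were higher and 13.3% lower at 1 to 10 FPKM, 3.69% and 9.59% at 10 to 100 FPKM, and 8.30% and 12.2% at 100 to 1000 FPKM, so the shares grew from 10 FPKM upward but not below. The median difference was -0.19, -0.22, -0.14 and -0.01 in the 4 bins. A further 732 loci were below 1 FPKM in this mean and entered only through their level in stored untreated fruit, so they had to stand out there, and 161 of them were higher and 90 lower.

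The balance of higher and lower loci differed between kinds of locus in untreated fruit. Among the 23509 assembled loci with a gene model, 563 were higher (2.39%) and 1419 lower (6.04%), with a median difference of -0.23. Among the 11977 assembled loci with no gene model the directions were even, at 620 higher (5.18%) and 626 lower (5.23%), with a median of -0.07. The 6801 gene models with no assembled locus differed most often, with 385 higher (5.66%) and 1031 lower (15.2%) and a median of -0.28. With 75th percentile scaling the counts were 776 higher and 988 lower for assembled loci with a model, 883 and 454 for those with none, and 524 and 842 for gene models alone. Assembled loci with no gene model had the most positive median under each scaling, pseudocount and filter tried. In 1-MCP-treated fruit the medians of the 3 kinds lay closer together, at -0.12, -0.09 and -0.16 in the same order. The shares of called loci showed a like pattern there, with 1.46% higher and 3.03% lower for assembled loci with a model, 2.5% and 3.49% for those with none, and 3.62% and 9.60% for gene models alone. Whether the treatments differ in this was not tested.

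These contrasts between kinds of locus were also present at matched levels. At 100 to 1000 FPKM, 12.6% of the 605 assembled loci with no gene model were higher and 9.42% lower, whereas for the 1564 assembled loci with a model the shares were 6.71% and 10.2%. At 1000 FPKM or more, 14 of 57 assembled loci with no gene model were higher and 4 lower, against 14 and 19 of 108 assembled loci with a model. Gene models with no assembled locus had the largest share of lower loci in each of the 4 bins, up to 22.9%. What the loci with no gene model are cannot be read from the table, and the libraries do not mark the strand, so a transcript and its antisense partner cannot be told apart. The 531 loci that carry several gene models, whose reads could be merged from neighbouring genes, had 30 higher (5.65%) and 42 lower (7.91%) members, beside 3.71% and 7.27% of all loci, and a median of -0.16.

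**Figure D4:**
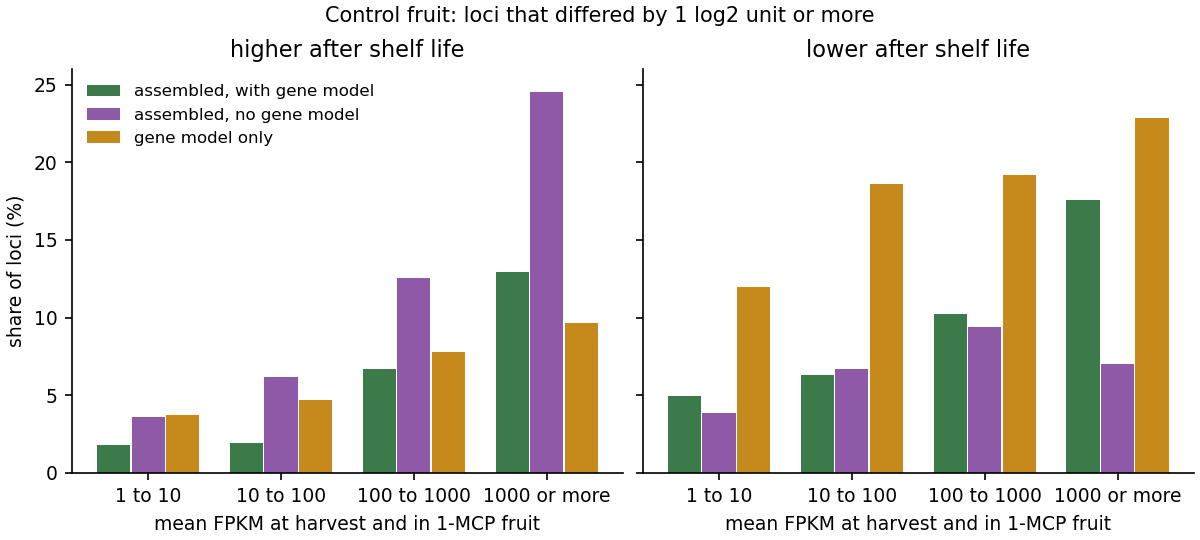
Share of loci (%) that were higher (left) or lower (right) by 1 log2 unit or more after shelf life in untreated fruit, by kind of locus and by the mean FPKM at harvest and in 1-MCP-treated fruit. Gene models with no assembled locus are the tallest bars on the right in all 4 bins (up to 22.9%), and assembled loci with no gene model are the tallest on the left from 10 FPKM upward.

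Shelf life went with differences at more loci in untreated than in 1-MCP-treated fruit, and most of the control differences were not matched there. In 1-MCP-treated fruit 889 (2.10%) stood higher and 1783 (4.22%) lower after shelf life, 6.32% together, and the interquartile range of the difference was 0.62 in untreated and 0.48 in 1-MCP-treated fruit. The control and 1-MCP comparisons share no column. Of the 1568 loci that were higher in untreated fruit, 240 were also higher in 1-MCP-treated fruit (15.3% of the control list and 27.0% of the 1-MCP list). A further 108 were lower there (6.89%), where 4.22% of all loci were lower, and 1220 (77.8%) did not reach a difference of 1. Of the 3076 loci that were lower in untreated fruit, 624 were also lower in 1-MCP-treated fruit (20.3% of the control list and 35.0% of the 1-MCP list), 86 were higher (2.80%, against 2.10% of all loci) and 2366 (76.9%) did not reach 1. The median 1-MCP difference was 0.15 over the higher loci and -0.43 over the lower loci, with -0.12 over all loci.

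Loci that were lower by more in untreated fruit more often reached a difference of 1 in 1-MCP-treated fruit as well, in the top step in both directions. The share that was lower in both was 17.1% of the 2557 loci lower by 1 to 2, 33.8% of the 396 lower by 2 to 3, and 43.9% of the 123 lower by 3 or more, and the share that was higher in 1-MCP-treated fruit was 2.58%, 2.53% and 8.13% over these steps. For higher loci the matched shares were 13.4% of 1339, 27.4% of 179 and 24.0% of 50 loci over the same steps, and the opposite shares 6.80%, 7.26% and 8%. Over the 50 loci higher by 3 or more, the median 1-MCP difference was only 0.07. Over the 123 loci lower by 3 or more it was -0.77. Over all loci, 4.22% were lower and 2.10% higher in 1-MCP-treated fruit. A larger drop needs a higher value at storage end, so the steps also sort loci by level. In 1-MCP-treated fruit at storage end the 123 had a median of 24.1 FPKM, against 13.4 FPKM over all 3076. The shares of loci that differed in 1-MCP-treated fruit grew with level too, and the steps were not compared at matched levels.

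**Figure D5:**
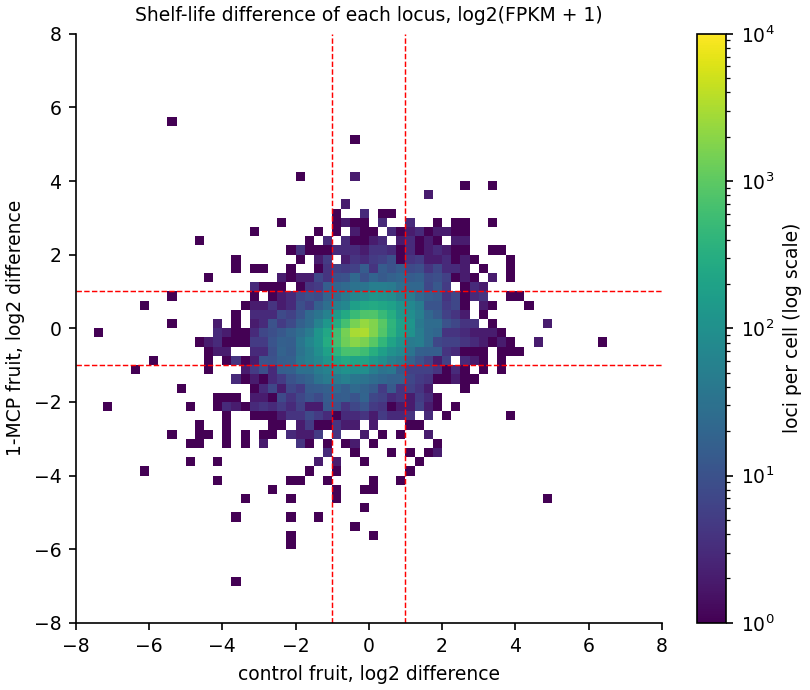
Log2(FPKM + 1) difference between shelf life and storage end for each locus, in untreated fruit (x axis) and 1-MCP-treated fruit (y axis). Colour gives the number of loci per square of 0.25 by 0.25 on a log scale, and dashed lines mark -1 and 1. The lower left corner holds 624 loci and the upper right 240, against 108 in the lower right and 86 in the upper left.

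The 240 loci that were higher with shelf life in both treatments, and the 624 that were lower in both, were chosen on the 4 columns of stored fruit, so how these columns stand to harvest follows in part from the choice. The median of the 240 was 28.0 FPKM at harvest, 11.1 FPKM at storage end and 40.2 FPKM after shelf life in untreated fruit, and 34.0 FPKM after shelf life and 9.93 FPKM at storage end in 1-MCP-treated fruit. The 624 loci that were lower in both had medians of 14.5 FPKM at harvest, 15.4 FPKM at storage end and 3.56 FPKM after shelf life in untreated fruit. In 1-MCP-treated fruit they were at 4.88 FPKM after shelf life and 16.8 FPKM at storage end.

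The shelf-life difference itself was more positive in untreated than in 1-MCP-treated fruit by 1 or more at 2331 loci (5.51%) and more negative at 2543 (6.01%), and with 75th percentile scaling at 2610 and 2360. The largest gap in favour of untreated fruit was at CUFF.41906 (gene model MDP0000348219), with 76.2 FPKM after shelf life and 1.5 FPKM at storage end in untreated fruit. In 1-MCP-treated fruit it stood at 3.95 FPKM after shelf life and 123 FPKM at storage end, and at harvest at 2.68 FPKM. The gap between the 2 differences was 9.60. The largest gap in the other direction was at CUFF.38194 (gene model MDP0000345053), with 4.04 FPKM after shelf life and 213 FPKM at storage end in untreated fruit. In 1-MCP-treated fruit it stood at 252 FPKM after shelf life and 4.47 FPKM at storage end, and at harvest at 5.17 FPKM (-10.94). At each of these loci 1 control column and 1 column of 1-MCP-treated fruit were high and the other 3 columns low. CUFF.37091 (6.70) and MDP0000138500 (-7.38), described above, came next in each direction.

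Differences between 1-MCP-treated fruit and harvest use none of the columns compared here, and they were set beside the control lists. Of the loci that were higher in untreated fruit after shelf life, 12.6% were higher and 21.0% lower in 1-MCP-treated fruit at storage end than at harvest, where 7.25% and 8.46% of all loci were. After shelf life these shares were 15.8% higher and 15.3% lower. Of the loci that were lower in untreated fruit, 6.08% were higher and 31.1% lower in 1-MCP-treated fruit after shelf life than at harvest, where 4.90% and 10.5% of all loci were. At storage end these shares were 13.1% higher and 17.2% lower. Both lists thus held more loci that differed from harvest in 1-MCP-treated fruit than the table as a whole. The lists also differed from all loci in level and kind. Their medians at harvest were 11.2 FPKM (higher loci) and 15.3 FPKM (lower loci), against 9.43 FPKM over all loci. Gene models with no assembled locus made up 385 of the 1568 and 1031 of the 3076, against 6801 of 42287. Whether the excess holds at matched level and kind was not tested.

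Loci listed at 0 were kept apart, because a value of exactly 0 may stand for an estimate that failed. Among 43129 loci with a mean of at least 1 FPKM, 842 had a 0 in some group. Of these, 249 were listed at 0 after shelf life but not at storage end in untreated fruit, and 123 the other way round. The value in the other column had a median of 2.31 FPKM for the first and 2.76 FPKM for the second. It reached 100 FPKM at 11 and 9 of these loci. Gene models with no assembled locus made up 138 of the 249 and 52 of the 123, beside 464 of all 842 loci set apart. Among the 42287 loci analysed they numbered 6801.

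Untreated fruit after shelf life held the lowest of the 5 values at 18328 loci (43.3%) and the highest at 4238. With 75th percentile scaling the shares were 28.1% lowest and 18.3% highest, and with the trimmed mean 24.2% and 21.8%. The lowest value was thus more often in this column than in any other under all 3 versions, while the highest value was least often in this column as deposited, but not with either scaling.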

How the data were processed

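RNA of apple skin was sequenced for 15 samples in 5 groups of 3, grouped here by their titles. Per the labels' protocols, libraries were non-directional TruSeq RNA libraries read as 100 bp reads on a HiSeq 1000. The submitters' processing notes name TopHat2, Cufflinks and Cuffdiff without versions, and the sources used here give neither genome build nor annotation. The authors deposited FPKM, written with decimal commas, in 1 column per group. Neither the depth nor any scaling between libraries is recorded. Among 5033 loci below 0.15 FPKM in both columns compared, the most frequent ratio of the columns was held by 86 loci, so read counts were not recovered.

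From these values log2(FPKM + 1) was computed and subtracted (Python 3.11.15, pandas 2.3.3, numpy 2.4.6), and the calculation was tested on simulated data. Named loci are the 2 most positive and 2 most negative of each comparison among loci reaching 5 FPKM. Members, lists and rules were chosen with earlier results of these data known. No gene list could be filled. The labels call the samples biological replicates. Alternatives were 4 scalings (75th percentile, trimmed mean of log ratios against harvest with 30% trimmed at each end, quantile normalization, equal sums), pseudocounts of 0.1 and 5, other filters and a size of 2.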

Additional observations from a re-analysis of the deposited data

Results flagged for a closer look

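The same 7 days of shelf life went with opposite differences in the 2 treatments at 108 loci that were higher in untreated fruit and lower in 1-MCP-treated fruit, and at 86 loci that were lower in untreated fruit and higher in 1-MCP-treated fruit. The 108 are 6.89% of the loci higher in untreated fruit, where 4.22% of all loci were lower with 1-MCP, and the 86 are 2.80% of the loci lower in untreated fruit, where 2.10% of all loci were higher with 1-MCP. With 1 value per group the difference between treatments was not tested. Both sets were chosen on the columns of stored fruit, so the opposite directions of their medians there are fixed by the choice. The 108 loci had a median of 20.6 FPKM at harvest, 48.6 FPKM at storage end and 139 FPKM after shelf life in untreated fruit, and of 7.74 FPKM after shelf life and 32.6 FPKM at storage end in 1-MCP-treated fruit. The 86 loci had a median of 16.3 FPKM at harvest, 21.4 FPKM at storage end and 5.04 FPKM after shelf life in untreated fruit, and of 21.8 FPKM after shelf life and 8.82 FPKM at storage end in 1-MCP-treated fruit. Among named loci, CUFF.41906 (gap between the differences 9.60) and CUFF.38194 (-10.94) had differences of opposite sign and at least 1 in size in the treatments, also untested. They were named for having the largest gaps, a choice that favours opposite signs.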

How the results depend on the processing

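No paired analysis was possible because replicates have no columns of their own, and for this reason none could be left out. Of 99 counts of untreated fruit, 1-MCP-treated fruit and their difference under alternatives, 71 stayed within 1.5 times the count reported. With 75th percentile scaling the median of all loci was -0.042 in control and -0.015 in 1-MCP-treated fruit, with trimmed mean scaling -0.012 and -0.013, and with quantile normalization -0.0018 and 0.011. These scalings level the columns by construction. Trimmed mean scaling gave 2357 higher loci in untreated fruit. A pseudocount of 0.1 gave 7300 loci in untreated fruit (4989 lower), 4272 in 1-MCP-treated fruit (2955 lower) and 7350 for the difference (3963 lower). A pseudocount of 5 gave 2201 (864 higher, 1337 lower), 1245 (461 and 784) and 2408 (1218 and 1190). A size of 2 gave 748 (229 and 519), 413 (130 and 283) and 919 (453 and 466). Keeping loci with a gene model, a version added with the data in view, gave 948, 589 and 1474 higher loci. Fewer loci enter or pass by construction in these last 3 versions.

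The named loci gave 79 values under alternatives, of which 0 changed sign and 8 moved over 1.5-fold, each of the 8 with another pseudocount. The filters cannot alter the values of a locus that they keep. Loci picked for the largest differences also leave little room for a change of sign, so these counts are a description only. Without a filter on low values the median of gene models with no assembled locus was -0.12 and that of assembled loci with a model -0.18, so their order turned. With 75th percentile, trimmed mean and quantile scaling, added here for the overlaps, between 14.6% and 15.3% of the higher loci of untreated fruit were also higher in 1-MCP-treated fruit, and at least 19.8% of the lower loci also lower. The shares over all loci moved as well. In this order of scalings 2.66%, 2.65% and 2.84% of all loci were higher in 1-MCP-treated fruit, beside 2.10% as deposited. The shares lower were 3.38%, 3.32% and 3.19%, beside 4.22% as deposited. With the depth unknown, no precision can be given for low FPKM values.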
